A study of Mus musculus with 5 samples.

Results

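The interferon regulatory factor (IRF) family was followed at the RNA level in type 2 innate lymphoid cells (ILC2s) from mouse lung, through 8 genes chosen by name (*Irf1*, *Irf2*, *Irf3*, *Irf4*, *Irf5*, *Irf7*, *Irf8* and *Irf9*) out of the 27726 genes common to all 5 libraries. Every member had at least 1 unique molecular identifier (UMI, a tag that marks 1 captured RNA molecule) in each of the 5 libraries. The question put to these samples was how the RNA of ILC2s changes while a tumour grows and when the cells are activated. Cells were sorted from the lungs of WT C57BL/6 female mice as lineage-negative cells bearing ST2, CD127, Thy1.2 and CD45, and the cells of several mice were pooled into each library. The naïve library came from mice without a tumour, and its cells were not activated and went to sequencing fresh. The ta-non-activated libraries held tumour-associated cells taken 2 weeks (wk2) and 3 weeks (wk3) after TC1 lung tumour cells were placed under the skin, and went to sequencing fresh. The wk2 and wk3 ta-activated libraries held such cells after a week of culture with IL-33, TSLP and IL-2, so culture and cytokine treatment cannot be told apart. Each library is 1 pool of mice, and only the ta-non-activated and ta-activated groups have 2 libraries.

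IRF proteins are transcription factors that share a DNA-binding domain reading GAAA repeats in the control regions of interferon-induced genes. IRF3, IRF5 and IRF7 act downstream of sensors of foreign nucleic acid and turn on interferon genes, whereas IRF9 is part of the complex that carries the type I interferon signal to its target genes. IRF1 is induced by interferon gamma, IRF2 was first described as its antagonist, IRF8 directs myeloid and dendritic cell development, and IRF4 is induced by antigen receptor and NF-kB signals and is required for cytokine production by type 2 lymphocytes.

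The promoter sequences of 4 members, *Irf7*, *Irf1*, *Irf2* and *Irf8*, are shown so that a reader can see which of them hold interferon-type motifs. They are not the only members that differed between libraries: *Irf4* and *Irf9* did too, and their windows held no match. Each runs from 250 to 51 bases before the RefSeq transcript start on GRCm38.p6, and capitals mark matches to the ISRE-type motif GAAANNGAAA or to the gamma-activated site (GAS) motif TTCNNNGAA, both searched on both strands over 300 bases (250 before to 50 after each start).
Irf7, chr7:141266475-141266674, minus strand: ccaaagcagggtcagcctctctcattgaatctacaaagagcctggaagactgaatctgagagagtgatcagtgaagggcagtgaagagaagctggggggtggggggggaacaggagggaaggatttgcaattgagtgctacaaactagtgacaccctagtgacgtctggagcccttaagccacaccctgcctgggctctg
Irf1, chr11:53769764-53769963, plus strand: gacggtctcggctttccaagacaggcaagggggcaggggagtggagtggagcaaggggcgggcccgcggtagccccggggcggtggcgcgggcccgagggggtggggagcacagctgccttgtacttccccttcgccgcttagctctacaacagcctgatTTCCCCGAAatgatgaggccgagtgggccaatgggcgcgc
Irf2, chr8:46739495-46739694, plus strand: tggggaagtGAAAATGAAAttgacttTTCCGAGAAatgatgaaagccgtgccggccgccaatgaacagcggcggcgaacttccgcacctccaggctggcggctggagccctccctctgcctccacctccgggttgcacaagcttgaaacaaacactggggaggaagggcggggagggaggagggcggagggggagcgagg
Irf8, chr8:120736108-120736307, plus strand: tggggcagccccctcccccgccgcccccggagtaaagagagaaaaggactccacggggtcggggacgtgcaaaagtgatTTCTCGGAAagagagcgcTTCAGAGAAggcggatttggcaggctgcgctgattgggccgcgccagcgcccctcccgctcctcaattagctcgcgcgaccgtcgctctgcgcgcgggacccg
The *Irf1* window held 1 GAS match, TTCCCCGAA. The *Irf2* window held the ISRE-type match GAAAATGAAA, with GGAAGTGAAA (a match to GGAANNGAAA) overlapping it, and the GAS match TTCCGAGAA. The *Irf8* window held 2 GAS matches, TTCTCGGAA and TTCAGAGAA. None of the 3 motifs occurred in the *Irf7* window, nor in those of *Irf3*, *Irf4*, *Irf5* and *Irf9*, which says only that these letters are not in these windows. Of 32851 promoter windows, 3.44% held the ISRE-type motif, 8.30% the GAS motif and 2.72% GGAANNGAAA. Counted by gene, 19 of 30 interferon-induced genes with a window (63.3%) held the ISRE-type motif and 9 the GAS motif, beside 3.99% and 9.55% of 27025 genes. All 8 members had a window, with 11 windows in all.

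The libraries held 1601 to 6389 cells after barcodes with under 200 genes or 5% or more mitochondrial counts were removed, with medians of 4396 to 16090 UMIs per cell, and pairs of libraries shared 1 to 8 barcodes. The ILC2 label was checked against 14 ILC2 markers in clusters made within each library without the IRF genes. Clusters that had 8 or more of these markers at 50 CPM or more (CPM, the UMIs of a gene scaled to a fixed library total) and no other cell type name are called ILC2-marker clusters here, a set defined after the data were seen. They held 83.4% of the naïve cells, each of the 1823 wk2 ta-non-activated cells, 43.5% of the wk3 ta-non-activated cells, and 98.5% and 99.6% of the wk2 and wk3 ta-activated cells. The set takes in clusters left without a name, some of them for leading genes of another cell type. Clusters named ILC2-like alone held 4223 naïve, 1006 wk2 and 697 wk3 ta-non-activated, and 2183 wk2 and 2093 wk3 ta-activated cells. The wk3 ta-non-activated library stood apart: its largest cluster of 468 cells was early-thymocyte-like and led by *Rag1* and *Ptcra*, and its 12 T cell markers summed to 6764 CPM against 294 to 1285 CPM in the other libraries. Within its ILC2-marker clusters those markers summed to 1272 CPM. The wk2 ta-non-activated library, although described as fresh, had *Il9* at 12580 CPM and *Il13* at 8861 CPM. By contrast, the wk3 ta-non-activated library had *Il9* at 0 and *Il13* at 19.6 CPM. Values are for all kept cells unless ILC2-marker clusters are named, and the members' ratios or fold changes and the list counts in those clusters stand beside them.

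Across the 4 tumour-associated libraries, *Irf1*, *Irf2*, *Irf3*, *Irf7* and *Irf9* were higher in both ta-activated libraries than in both ta-non-activated ones, 5 of 8 members beside 30.7% of 9883 genes. In ILC2-marker clusters these were 4 of 8, without *Irf3*, beside 30.8%. *Irf4*, *Irf5* and *Irf8* overlapped between the groups. By the quasi-likelihood test of edgeR, adjusted by Benjamini-Hochberg over all genes (2 libraries against 2), 0 of the 8 members and 0 of 12643 genes (0%) passed an adjusted p of 0.05, with 2120 genes (16.8%), among them *Irf2*, *Irf7* and *Irf9*, at an unadjusted p under 0.05. DESeq2, run as an alternative, called 1047 of 12575 genes (8.33%), including *Irf7* and *Irf9*. Within ILC2-marker clusters edgeR also called 0 of 12574 genes (0%), with 1465 (11.7%), among them *Irf7* and *Irf9*, at an unadjusted p under 0.05. Of the 8 members, 3 (*Irf2*, *Irf7* and *Irf9*) were 2-fold or more higher in both weeks as a ratio of CPM + 1, beside 7.87% of the 8814 genes compared. In ILC2-marker clusters 3 of the 7 members compared were (*Irf1*, *Irf7* and *Irf9*), beside 7.76%. Levels are CPM of UMIs summed over a library, with exact 95% Poisson intervals that cover counting error only, and they are compared between libraries and not between genes.

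**Figure D1:**
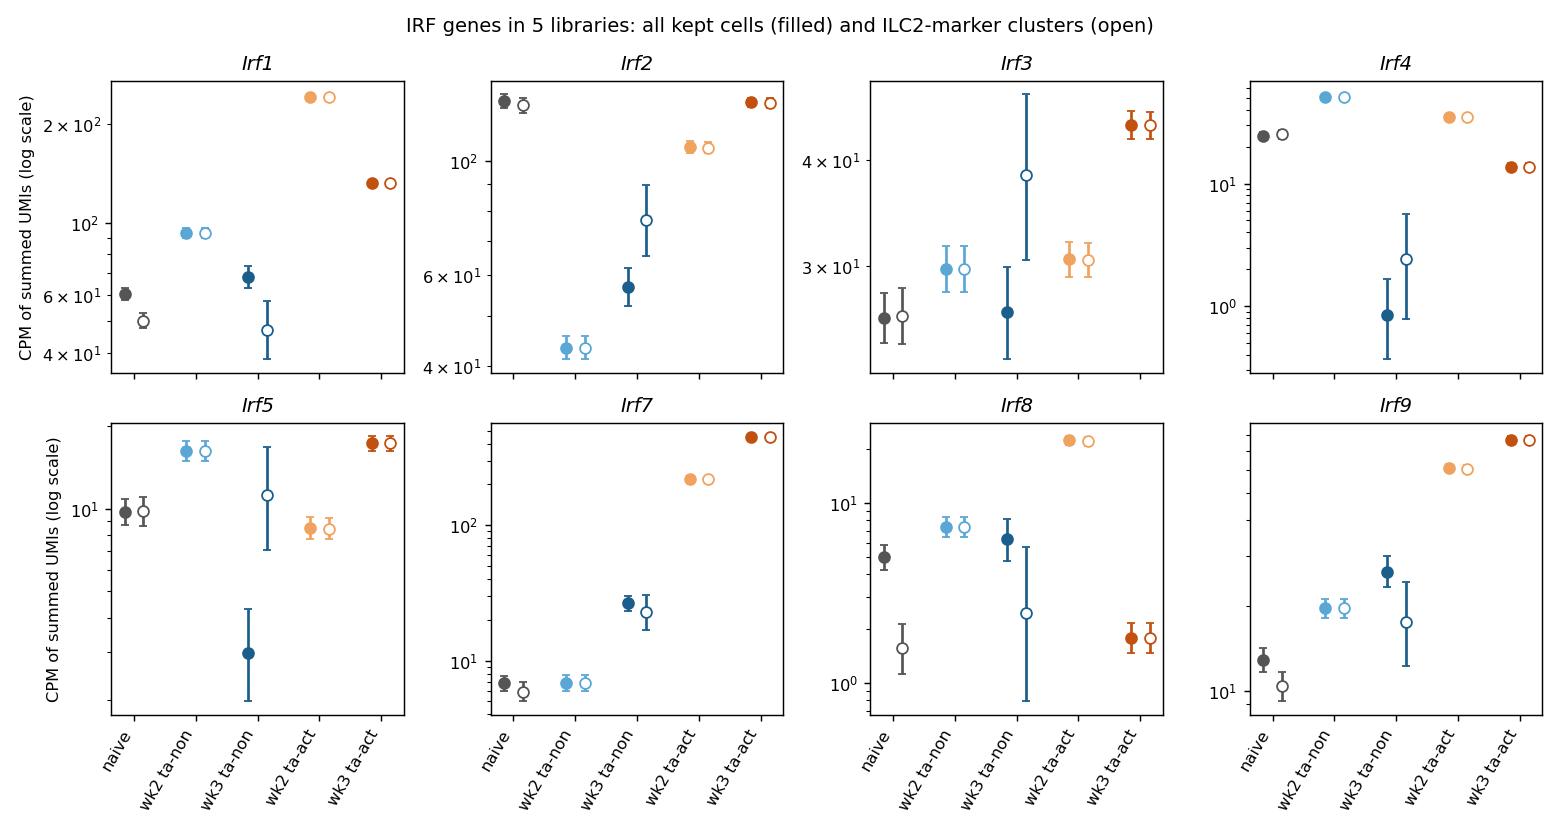
Level of each IRF gene in the 5 libraries (CPM of summed UMIs, log scale, 1 panel per gene with its own range), for all kept cells (filled) and ILC2-marker clusters (open), with exact 95% Poisson intervals. *Irf7* lies above 200 CPM only in the 2 ta-activated libraries, and *Irf4* lies at 0.85 CPM in the wk3 ta-non-activated library.

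*Irf7*, the factor that amplifies type I interferon production, had the highest ratio of the family between the states. It stood at 6.79 CPM in naïve cells, 6.83 and 26.6 CPM in wk2 and wk3 ta-non-activated cells, and 221 and 449 CPM in wk2 and wk3 ta-activated cells. The naïve and wk2 ta-non-activated intervals (5.92 to 7.75 and 5.97 to 7.78 CPM) overlapped, and every other neighbour in this order was separated. In ILC2-marker clusters the log2 differences of CPM + 1 of *Irf7*, naïve minus wk2 and wk3 ta-non-activated, were -0.183 and -1.791. The medians of genes in its decile of intron length were -0.519 and -0.413. Against wk2 and wk3 ta-activated cells *Irf7* had -5.002 and -6.027, beside medians of -0.644 and -0.635. The part of intron length was not tested. The ratio of ta-activated to ta-non-activated was 32.3 (28.3 to 37.0) in week 2 and 16.9 (14.9 to 19.2) in week 3, and in ILC2-marker clusters it was 32.2 and 19.6. In clusters named ILC2-like alone the ratio was 53.1 in week 2, where the ta-non-activated level was 3.40 CPM, and 20.6 in week 3. The edgeR log2 fold change was 4.30 ± 0.79 (SE, 2 against 2 libraries), with an unadjusted p of 0.0035 and an adjusted p of 0.243. Its adjusted p was 1.303e-06 by DESeq2. Leaving out the wk2 or the wk3 ta-non-activated library brought the edgeR adjusted p to 0.041 and 0.0465, fits in which 1 ta-non-activated library remained and was assumed to vary like the ta-activated pair. Over all alternatives it ran from 1.303e-06 to 0.9996, the last without the wk3 ta-activated library.

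The share of cells with an *Irf7* UMI was read in ILC2-marker clusters after thinning to 2000 UMIs a cell, since depth differed between libraries. Cells with fewer than 2000 UMIs were left out. It was 1.17% of 5134 naïve cells, 1.49% of 1809 wk2 and 4.48% of 603 wk3 ta-non-activated cells, 41.3% of 2778 wk2 ta-activated cells and 59.99% of 3699 wk3 ta-activated cells. Without thinning, over all cells of these clusters, the shares were 2.72%, 9.27%, 6.46%, 83.6% and 94.8%. In the naïve library 0 of 98 fibroblast-like cells had an *Irf7* UMI. This allows a share of up to 3.06% (3 cells of 98, or 3.69% as the exact 95% limit). The naïve share of 1.17% was not above either limit. That cluster also had 11 of the 14 ILC2 markers, with *Gata3* at 636 CPM, and the endothelial marker *Ramp2* at 451 CPM. Whether its cells should lack *Irf7* is therefore not settled, and they do not measure free RNA. Among T-cell-like cells of the wk2 ta-activated library, 18 of 44 (40.9%) had one, with a median of 7850.5 UMIs over that cluster against 13807 in ILC2-marker clusters. The ta-activated libraries held no cluster of a type that should lack *Irf7*, so free RNA was not measured there either. Shares differed between their clusters, from 17.1% to 76.4% in the wk2 ta-activated library.

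*Irf9*, the DNA-binding subunit of that interferon-activated complex, followed the same order with smaller ratios. Its level was 12.9 CPM in naïve cells, 19.7 and 26.4 CPM in wk2 and wk3 ta-non-activated cells, and 61.1 and 77.0 CPM in wk2 and wk3 ta-activated cells. All neighbours in this order had separate intervals over all kept cells, but in ILC2-marker clusters the wk3 ta-non-activated level was 17.5 CPM (12.3 to 24.2), which overlapped the 19.7 CPM (18.2 to 21.2) of wk2. The ratio of ta-activated to ta-non-activated was 3.11 (2.86 to 3.38) in week 2 and 2.92 (2.57 to 3.33) in week 3, and 3.09 and 4.39 in ILC2-marker clusters. By edgeR the log2 fold change was 1.495 ± 0.32 (SE), with an adjusted p of 0.243. DESeq2 gave an adjusted p of 0.0105, and the alternatives ranged from that value to 0.9996. *Irf9* shares bases on the same strand with *Rnf31*, so reads of the 2 genes may not be fully separated. In ILC2-marker clusters its log2 differences of CPM + 1, naïve minus wk2 and wk3 ta-non-activated, were -0.855 and -0.697. The medians of genes in its decile of intron length were -0.519 and -0.413. Against wk2 and wk3 ta-activated cells *Irf9* had -2.437 and -2.769, beside medians of -0.644 and -0.635. The part of intron length was not tested.

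*Irf1*, a target of interferon gamma and an activator of antigen presentation genes, was highest in the wk2 ta-activated library. It stood at 60.6 CPM in naïve cells, 93.1 and 68.3 CPM in wk2 and wk3 ta-non-activated cells, and 243 and 132 CPM in wk2 and wk3 ta-activated cells. The groups did not overlap, and the 2 ta-activated libraries differed from each other by a factor of 1.84. Within ILC2-marker clusters the naïve level fell to 50.3 CPM (47.6 to 53.1) and the wk3 ta-non-activated level to 47.2 CPM (38.3 to 57.6), 2 intervals that overlapped. Ratios in those clusters were 2.60 in week 2 and 2.80 in week 3. There its log2 differences of CPM + 1, naïve minus wk2 and wk3 ta-non-activated, were -0.876 and 0.09. The medians of genes in its decile of intron length were -0.702 and -0.336. Against wk2 and wk3 ta-activated cells *Irf1* had -2.246 and -1.375, beside medians of -0.691 and -0.665, and the part of intron length was not tested. In edgeR its log2 fold change was 1.10 ± 0.50 (SE), with an adjusted p of 0.347.

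*Irf2*, which competes with IRF1 for the same sites, stood as high in the naïve library as in the wk3 ta-activated library. It was lower in the wk2 ta-activated library, with an interval of 104 to 109 CPM. In the naïve library it stood at 131 CPM, in the wk2 and wk3 ta-non-activated libraries at 43.4 and 56.9 CPM, and in the wk2 and wk3 ta-activated libraries at 106 and 130 CPM. The naïve and wk3 ta-activated intervals overlapped (127 to 135 and 127 to 133 CPM). The log2 fold change was 1.14 ± 0.32 (SE) with an adjusted p of 0.252 by edgeR and 0.0552 by DESeq2, and in ILC2-marker clusters it was 0.80 ± 0.45 (SE, adjusted p = 0.556) by edgeR. Against naïve cells, *Irf2* in ILC2-marker clusters had a ratio of 0.339 in wk2 and 0.60 in wk3 ta-non-activated cells. Its introns span 100331 bases, and the 1014 genes in its decile of intron length had median log2 differences of CPM + 1, naïve minus the other library, of 1.43 and 1.08 for wk2 and wk3 ta-non-activated and 1.13 and 0.94 for wk2 and wk3 ta-activated cells of ILC2-marker clusters. The log2 differences of *Irf2* itself were 1.54 and 0.73 against the ta-non-activated libraries, and 0.27 and -0.016 against the ta-activated ones, below the median of its decile in 3 of the 4. The part of intron length in these values was not tested.

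*Irf3* and *Irf5*, which transmit signals from nucleic acid sensors and Toll-like receptors, had the log2 fold changes of smallest size in the family, and the sign of both turned between all kept cells and ILC2-marker clusters. *Irf3* ran from 26.0 CPM in naïve cells through 29.7 and 26.4 CPM in wk2 and wk3 ta-non-activated cells to 30.5 and 44.0 CPM in wk2 and wk3 ta-activated cells. The wk2 pair had overlapping intervals (27.9 to 31.6 and 29.1 to 32.0 CPM), and in ILC2-marker clusters the wk3 pair did too, at 38.4 CPM (30.4 to 47.9) and 44.0 CPM (42.4 to 45.7). Its edgeR log2 fold change was 0.29 ± 0.36 (SE, adjusted p = 0.702), and -0.06 ± 0.40 (SE, adjusted p = 0.969) in ILC2-marker clusters.

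*Irf5* stood at 9.75 CPM in naïve cells, 16.3 and 2.98 CPM in wk2 and wk3 ta-non-activated cells, and 8.51 and 17.3 CPM in wk2 and wk3 ta-activated cells. The low value belonged to the wk3 ta-non-activated library, where 1 UMI came from its 468 early-thymocyte-like cells (0.389 CPM). ILC2-marker clusters of that library stood at 11.2 CPM (7.09 to 16.8). The ratio of ta-activated to ta-non-activated in these clusters was 0.520 (0.459 to 0.589) in week 2 and 1.55 (1.03 to 2.46) in week 3, opposite in direction, and the log2 fold change by edgeR was 0.20 ± 0.93 (SE, adjusted p = 0.926) over all kept cells and -0.32 ± 0.51 (SE, adjusted p = 0.833) in ILC2-marker clusters.

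*Irf8*, best known from dendritic cells and macrophages, was read from few molecules except in the wk2 ta-activated library. That library held 1273 *Irf8* UMIs, against 59 to 244 in the others. Over all kept cells it stood at 4.97 CPM in naïve, 7.34 and 6.28 CPM in wk2 and wk3 ta-non-activated, and 22.2 and 1.78 CPM in wk2 and wk3 ta-activated libraries. The 2 ta-activated libraries thus lay on either side of all others and differed by a factor of 12.5. In ILC2-marker clusters the naïve level was 1.57 CPM (1.13 to 2.13) and the wk3 ta-non-activated level 2.43 CPM (5 UMIs). Clusters outside the ILC2-marker set carried most of the naïve *Irf8*. The 533 cells of the cluster named NK- or ILC1-like had 33.2 CPM, against 0.531 to 2.18 CPM in the 5 ILC2-marker clusters. That cluster also had all 14 ILC2 markers, with *Gata3* at 484 CPM. At a Leiden resolution of 1.0, 218 naïve cells were NK- or ILC1-like, and 255 cells led by *Stmn1* were ILC2-like. Its *Irf8* is therefore not assigned to a single cell type. At 2000 UMIs a cell, 3.91% of the cells of that cluster and 0.292% of cells in ILC2-marker clusters had an *Irf8* UMI. The edgeR log2 fold change was 0.72 ± 1.16 (SE, adjusted p = 0.766), and 0.98 ± 1.22 (SE, adjusted p = 0.785) in ILC2-marker clusters, where the ratio was 2.99 (2.61 to 3.44) in week 2 and 0.73 (0.304 to 2.30) in week 3. *Irf8* was the only member that was 2-fold or more apart in opposite directions in the 2 weeks, beside 2.20% of all genes compared (0 of 7 members in ILC2-marker clusters, beside 2.76%), and it shares bases on the same strand with *Gm20388*.

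**Figure D2:**
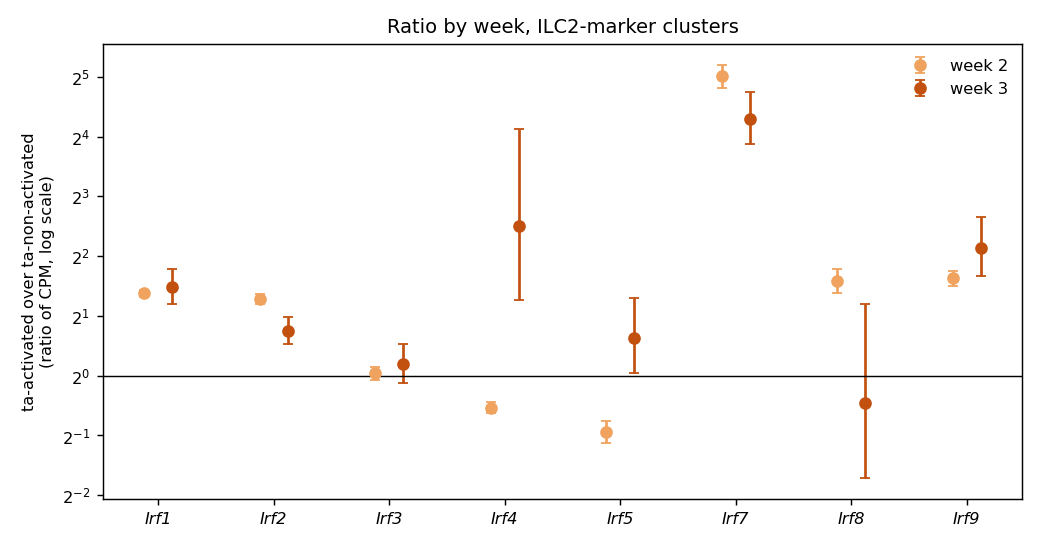
Ratio of ta-activated to ta-non-activated CPM (log scale) in ILC2-marker clusters for each IRF gene in week 2 and week 3, with exact 95% intervals for counting error. *Irf7* lies at 32.2 and 19.6, *Irf9*, *Irf1* and *Irf2* above 1 in both weeks, *Irf4* and *Irf5* on opposite sides of 1, and *Irf8* at 2.99 and at 0.73 with an interval that takes in 1.

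*Irf4* was set apart from the interferon-linked members by its order across libraries. It stood at 24.7 CPM in naïve cells, 51.0 and 0.85 CPM in wk2 and wk3 ta-non-activated cells, and 34.96 and 13.7 CPM in wk2 and wk3 ta-activated cells. All neighbours in this order had separate intervals. The wk3 ta-non-activated library held 8 *Irf4* UMIs in 1601 cells, 5 of them among its 697 cells in ILC2-marker clusters, or 2.43 CPM (0.79 to 5.68). That was 0.0965-fold (0.0312 to 0.226) the naïve level in the same kind of clusters, and the low value was thus also present among cells with ILC2 markers. The ratio of ta-activated to ta-non-activated in ILC2-marker clusters was 0.69 (0.646 to 0.736) in week 2 and 5.66 (2.41 to 17.5) in week 3. Over all kept cells the edgeR log2 fold change was -0.32 ± 1.64 (SE, adjusted p = 0.935), and without the wk2 ta-non-activated library it was 4.92 (adjusted p = 0.0539). The 10 cytokines linked to IRF4 summed to 24549 CPM in the wk2 and 375 CPM in the wk3 ta-non-activated library. In ILC2-marker clusters they summed to 1556 CPM in the wk3 ta-non-activated and 1882 CPM in the naïve library, whereas *Irf4* was 10.4-fold higher in the naïve clusters.

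Within single libraries *Irf4* was more frequent in cells that carried *Il13*, the type 2 cytokine that drives mucus and eosinophil responses. At 2000 UMIs a cell in ILC2-marker clusters, an *Irf4* UMI was found in 29 of 252 naïve cells with an *Il13* UMI (11.5%, exact 95% interval 7.84 to 16.1%) and in 185 of 4882 without one (3.79%, 3.27 to 4.36%). In the wk2 ta-non-activated library the shares were 8.44% (7.13 to 9.91%) and 3.33% (1.35 to 6.75%). They were 5.11% and 1.75% in the wk2 ta-activated library and 1.87% and 0.558% in the wk3 ta-activated library. Cells with *Il13* had the larger share in these 4 libraries, with separate intervals in 3 of them and intervals of 1.42 to 2.40% and 0.115 to 1.62% in the wk3 ta-activated library. In the wk3 ta-non-activated library 0 of 33 cells with *Il13* and 3 of 570 without had an *Irf4* UMI, so no difference was detectable at this depth. The same split by *Il5*, the eosinophil growth factor, gave 5.39% against 3.91% in naïve cells and 5.26% against 3.01% in wk2 ta-activated cells, of which only the last pair had separate intervals. The *Il5* split of the wk2 and wk3 ta-non-activated and wk3 ta-activated libraries is not given here. In the naïve library 3 of 98 fibroblast-like cells (3.06%, 0.636 to 8.69%) also had an *Irf4* UMI. The interval of that share takes in the 4.17% of naïve ILC2-marker clusters. The fibroblast-like cluster also had 11 of the 14 ILC2 markers, so its share does not measure free RNA. Before thinning, cells with *Il13* had medians of 5050 UMIs against 4468 in the naïve library.

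*Irf7* was more frequent in cells that carried more interferon-induced RNA, a list of 40 genes that holds no IRF gene. In ILC2-marker clusters at 2000 UMIs a cell, the wk2 ta-activated library had an *Irf7* UMI in 7 of 115 cells with 1 to 2 of these genes (6.09%, 2.48 to 12.1%) and in 1139 of 2650 cells with 3 or more (43.0%, 41.1 to 44.9%). In the wk3 ta-activated library the shares were 6 of 20 cells and 60.2% of 3679 cells. The class with 3 or more of these genes held 2650 of 2778 wk2 and 3679 of 3699 wk3 ta-activated cells. In the wk2 ta-non-activated library the share was 0.296% with 0, 0.426% with 1 to 2 and 4.14% with 3 or more of these genes. Its wk3 counterpart had 0.562%, 4.44% and 15.4%, and the naïve library 0.92%, 1.10% and 2.41%. In each of these libraries the class with 3 or more had the larger share than that with 1 to 2. Among clusters named ILC2-like alone the order turned in the wk3 ta-activated library, with 6 of 9 cells against 60.4% of 2079 (a difference of -6.25 points). At 1000 UMIs a cell it also turned in ILC2-marker clusters of the wk3 ta-non-activated library, with 7 of 310 cells against 0 of 18. The naïve intervals of the classes overlapped, while in the other 4 libraries the class with 3 or more lay above that with 1 to 2 with separate intervals.

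*Irf1* and *Irf9* were split in the same way in the wk2 ta-non-activated library. *Irf1* had a UMI in 9.47%, 10.6% and 30.6% of cells with 0, 1 to 2 and 3 or more interferon-induced genes, and *Irf9* in 1.18%, 3.94% and 7.52%. Neither showed this in the wk3 ta-non-activated library, where *Irf1* went from 10.1% of 178 through 27 of 360 to 2 of 65 cells. *Irf4* went the other way in the wk2 ta-activated library, by CPM without thinning. It stood at 61.7 CPM in cells with 1 to 2 of these genes and at 32.4 CPM in cells with 3 or more. The *Irf1* and *Irf9* split of the naïve and ta-activated libraries is not given here, nor is the *Irf4* split of the other libraries.

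**Figure D3:**
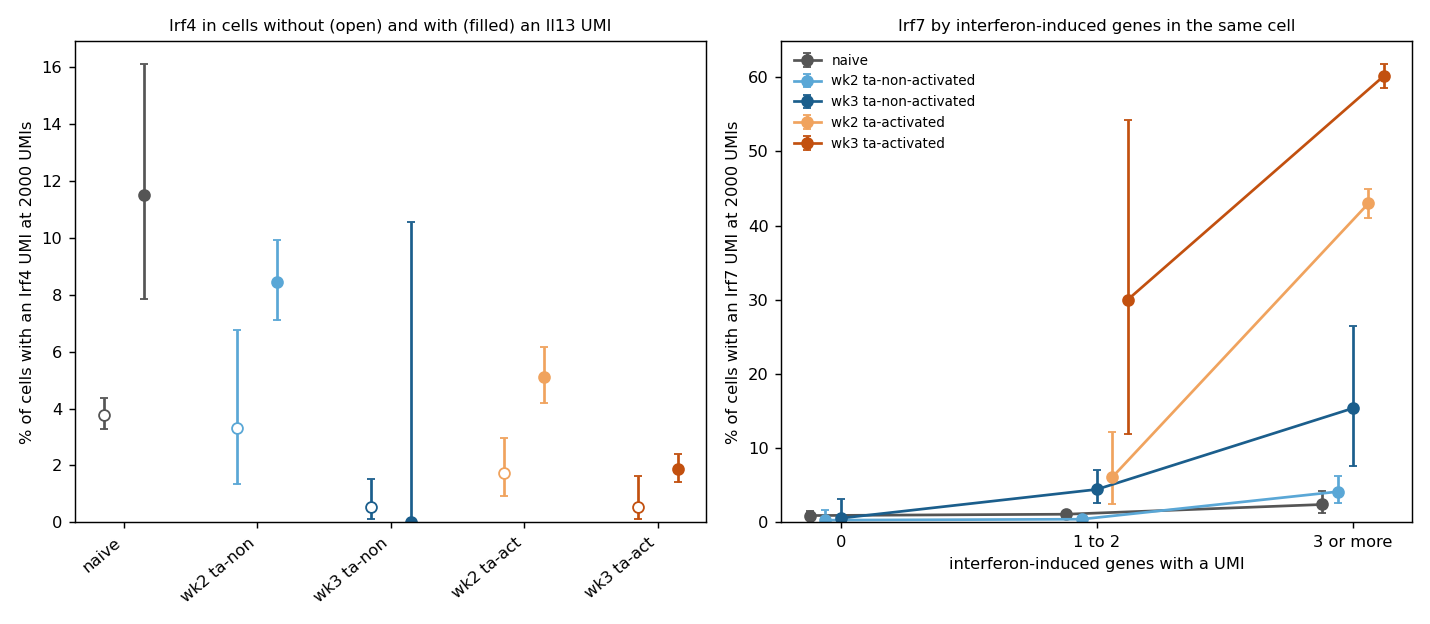
Left, percent of cells with an *Irf4* UMI among cells without (open) and with (filled) an *Il13* UMI; right, percent with an *Irf7* UMI by the number of interferon-induced genes with a UMI (classes of 20 or more cells), both in ILC2-marker clusters at 2000 UMIs a cell with exact 95% intervals. *Irf4* runs at 11.5% against 3.79% in naïve cells, and *Irf7* reaches 43.0% and 60.2% in ta-activated cells with 3 or more of the genes.

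Within a library the members differed in which clusters held most of their RNA. In the wk2 ta-activated library the 463 cells led by *Trim30c*, *Ifit1bl1*, *Ifit2* and *Ifit3* had *Irf7* at 736 CPM, *Irf1* at 554 CPM and *Irf4* at 4.60 CPM. The 797 cells led by *Nts*, *Penk* and *Cxcl3* had *Irf7* at 129 CPM, *Irf1* at 268 CPM and *Irf4* at 60.04 CPM. The wk3 ta-activated library showed the same contrast, with *Irf7* at 580 CPM and *Irf4* at 4.25 CPM in the 1495 cells led by *Ifit2*, against 241 and 31.5 CPM in the 439 cells led by *Il22* and *Ccl1*. In the wk2 ta-non-activated library 345 cells were led by *Gbp2*, *Iigp1*, *Fcer1g* and *Nkg7*, a cluster left unnamed for leading genes of another cell type. It had *Irf1* at 221 CPM, *Irf7* at 21.4 CPM and *Irf8* at 20.1 CPM, above the other clusters of that library. *Irf4* was 48.3 CPM there and 25.5 to 59.5 CPM elsewhere. At a Leiden resolution of 1.0, that library had a cluster of 28 cells led by *Fcer1g* and *Nkg7*, with *Ncr1* at 56.5 CPM. The naïve cells richest in *Irf4* were the 1296 led by *Sorcs1* and *Alcam*, at 51.1 CPM and 8.64% of cells, against 8.74 to 22.3 CPM in the other ILC2-marker clusters.

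Over the 33 clusters of 50 or more cells, taken as log2 CPM minus the mean of the library, *Irf7* and *Irf9* had a Pearson r of 0.72, *Irf1* and *Irf9* 0.66, and *Irf4* and *Irf7* -0.58. These are descriptions of clusters that share libraries and differ in depth. The genes most like *Irf7* among 9311 genes were *Zbp1* (r = 0.81), *Tgtp1* and *Ifi203* (both 0.78). Those most like *Irf4* were *Il9* and *Mir155hg* (both 0.76) and *Nek6* (0.74), and those most like *Irf8* were *Ms4a4b* (0.72), *Ms4a6b* (0.66) and *Ifi47* (0.65). For *Irf4* and *Il9* the r within single libraries was 0.06 in naïve cells, 0.86 in wk2 ta-non-activated cells and 0.88 and 0.93 in wk2 and wk3 ta-activated cells. It had no value in the wk3 ta-non-activated library, where *Il9* was at 0 CPM. Each r rests on the few clusters of a library, and *Il9* was picked for its r over these same clusters, so these values are not separate evidence.

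**Figure D4:**
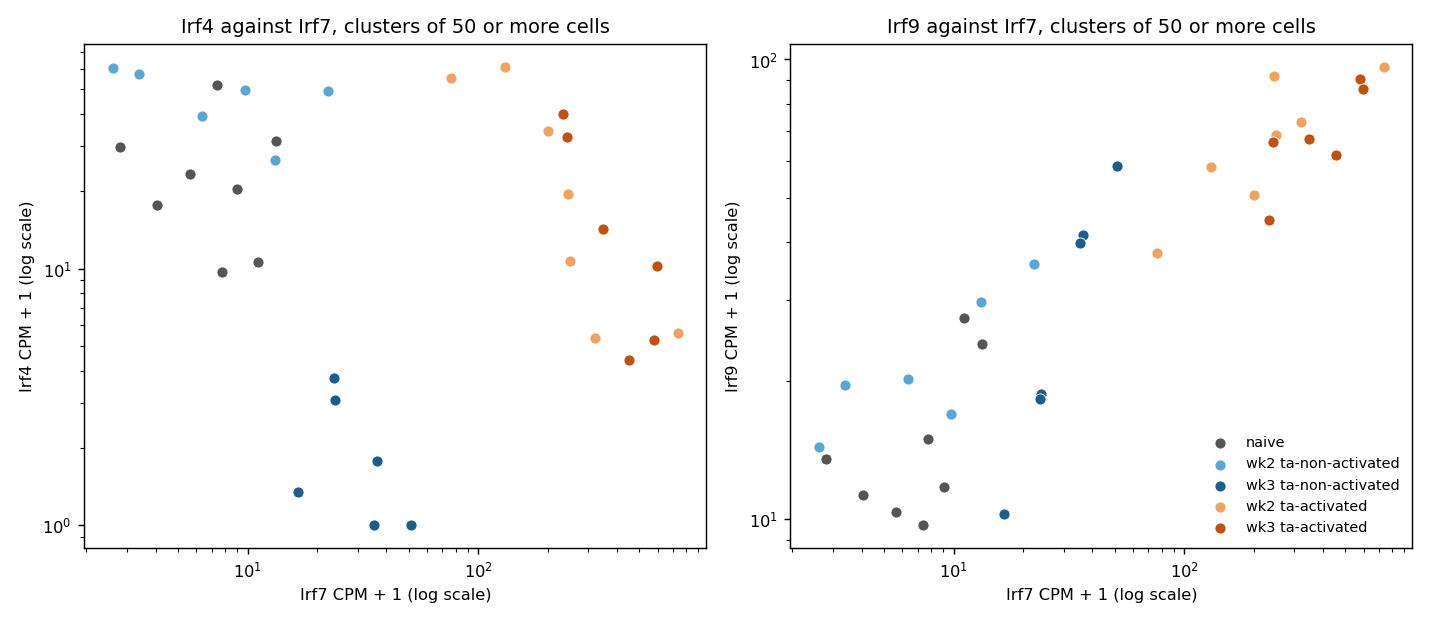
CPM + 1 of *Irf4* (left) and *Irf9* (right) against *Irf7* on log axes, with 1 point per cluster of 50 or more cells, coloured by library. *Irf9* climbs with *Irf7*, while *Irf4* is low in the clusters of the ta-activated libraries that are highest in *Irf7* and in all clusters of the wk3 ta-non-activated library.

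The genes around the family were read from the same edgeR fit, in which none passed the adjusted threshold. Of the interferon-induced genes, 39 of 40 were tested and 39 had a positive log2 fold change. Their median log2 fold change was 3.15, beside -0.02 over all genes tested. Of them, 31 had an unadjusted p under 0.05, beside 16.8% of all genes. In ILC2-marker clusters 32 had an unadjusted p under 0.05, beside 11.7%, and the median was 3.48. The most abundant were *Ifi27l2a* (log2 fold change 6.45 ± 1.66 SE), *Isg15*, a ubiquitin-like modifier (3.81 ± 1.12), *Samhd1*, a nucleotide hydrolase (3.07 ± 0.44), and *Bst2*, which tethers virus particles (1.70 ± 0.33). Their list summed to 736, 1168 and 1139 CPM in the naïve, wk2 and wk3 ta-non-activated libraries and to 8128 and 12552 CPM in the wk2 and wk3 ta-activated libraries, highest in the same pair of libraries as *Irf7*. In ILC2-marker clusters the wk3 ta-non-activated sum was 725 CPM, below the 1168 CPM of wk2, whereas *Irf7* there stood at 22.9 CPM against 6.83 CPM.

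Among the 11 interferon genes themselves 1, *Ifng*, was abundant enough to test, and *Ifnb1* was at 0 in every library. *Ifng* stood at 7.87 CPM in naïve and at 3.61 and 21.9 CPM in wk2 and wk3 ta-non-activated cells. In wk2 and wk3 ta-activated cells it stood at 9.43 and 0 CPM. In ILC2-marker clusters its naïve level was 0.728 CPM and its wk3 ta-non-activated level 2.92 CPM. Of 18 tested sensors and kinases upstream of IRF3, IRF5 and IRF7, 16 had a positive log2 fold change, with a median of 0.56. An unadjusted p under 0.05 by edgeR was found for 5 of them, beside 16.8% of all genes. The RNA sensor *Ddx58* stood at 21.04 and 20.8 CPM in ta-non-activated and 72.7 and 134 CPM in ta-activated cells of wk2 and wk3, with a log2 fold change of 2.19 ± 0.43 (SE). *Tbk1*, the kinase that acts on IRF3, had a log2 fold change of 0.57 ± 0.63 (SE). In ILC2-marker clusters 11 of the 18 were positive, with a median of 0.34. There 4 had an unadjusted p under 0.05 by edgeR, beside 11.7% of all genes.

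Receptors and kinases of the interferon pathway numbered 8 tested, with 6 positive and a median log2 fold change of 0.19. Of these, 0 had an unadjusted p under 0.05 by edgeR, beside 16.8% of all genes. In ILC2-marker clusters the sign of the median turned, to -0.39 with 3 of 8 positive. *Ifngr1*, a chain of the interferon gamma receptor, stood at 452 CPM in naïve, 32.2 and 419 CPM in wk2 and wk3 ta-non-activated, and 45.5 and 44.9 CPM in wk2 and wk3 ta-activated cells. Partners of IRF proteins included *Jun*, which joins IRF4 at composite sites, at 621 CPM in naïve, 36.1 and 907 CPM in wk2 and wk3 ta-non-activated, and 13.95 and 20.4 CPM in wk2 and wk3 ta-activated cells. Both genes were high in the naïve and wk3 ta-non-activated libraries and low in the other 3. In ILC2-marker clusters of these 2 libraries *Ifngr1* stood at 320.5 and 373 CPM and *Jun* at 622 and 523 CPM. Of the 19 partners tested, 8 had an unadjusted p under 0.05, beside 16.8% of all genes, and the median was 0.25. In ILC2-marker clusters 5 of 18 had, beside 11.7%, with a median of 0.11. Signalling genes upstream of *Irf4* had 2 of 12 at an unadjusted p under 0.05, a share near that of all genes. Their median of 0.14 turned to -0.29 in ILC2-marker clusters, with 1 of 12 beside 11.7%. The cytokines linked to IRF4 had 2 of 9 at an unadjusted p under 0.05, beside 16.8%, with a median of -0.42. In ILC2-marker clusters they had 1 of 9, beside 11.7%, with a median of -0.43. In that last list *Il13* stood at 55.6 CPM in naïve and at 8861 and 19.6 CPM in wk2 and wk3 ta-non-activated cells. It stood at 3501 and 4318 CPM in wk2 and wk3 ta-activated cells, with a log2 fold change of -0.42 ± 2.11 (SE). *Areg*, a growth factor for epithelium, had a log2 fold change of 1.40 ± 0.52 (SE) over all kept cells. In ILC2-marker clusters *Areg* stood at 352 and 940 CPM in wk2 and wk3 ta-non-activated cells. There it stood at 1098 and 600 CPM in wk2 and wk3 ta-activated cells, so the groups overlapped.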

How the data were processed

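RNA was captured from pooled, sorted lung ILC2s with the 10x Genomics 3-prime chemistry. The authors deposited UMI counts for each gene and barcode, not normalized; the submitters' processing notes name Cell Ranger 3.0.2, Seurat 3 and GRCm38, and the naïve matrix header names Cell Ranger 6.0.0. Counts of the 27726 genes common to the 5 libraries were used from barcodes with 200 or more genes and under 5% mitochondrial counts. The deposited libraries totalled 9910201 to 71126524 UMIs. Barcodes were clustered within each library (scanpy 1.11.5, 2000 variable genes without IRF genes, Leiden resolution 0.5) and named from marker lists. Scrublet marked 0 to 18 cells of a library, under 0.5% in 4 of the 5, and its calls were not removed. Counts summed per library were fitted with edgeR 4.0.16 (2 libraries against 2), with DESeq2 1.42.0 as an alternative, after tests on simulated data. Levels have exact Poisson intervals and shares exact binomial (Clopper-Pearson) ones, which cover counting error only. Ratios were counted for genes at 5 CPM or more in either library. Nothing states that the weeks pair the libraries. Each library is 1 pool, and the 2 libraries of a group come from different weeks. The spread behind the p-values thus holds differences of week and of cell content as well as those between pools. Listed genes were named by the highest mean CPM, up to 4 per list, and cluster likeness by Pearson r. Promoters came from RefSeq on GRCm38.p6, and gene positions from GENCODE M21. The members and lists were chosen with earlier results of these data known. Another family member is not reported here.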

Additional observations from a re-analysis of the deposited data

Results flagged for a closer look

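*Irf4*, *Irf5* and *Irf8* went in opposite directions in the 2 weeks, with 1 library per state and week, and the difference between weeks was not tested. The ratio of ta-activated to ta-non-activated CPM over all kept cells was 0.685 in week 2 and 16.1 in week 3 for *Irf4*, 0.523 and 5.82 for *Irf5*, and 3.02 and 0.283 for *Irf8*. In ILC2-marker clusters it was 0.69 in week 2 and 5.66 in week 3 for *Irf4*, and 0.52 and 1.55 for *Irf5*. For *Irf8* it was 2.99 in week 2 and 0.73 (0.304 to 2.30) in week 3 there, an interval that takes in 1. The *Irf4* values in week 3 divide by 8 *Irf4* UMIs over all kept cells and by 5 in ILC2-marker clusters, and that of *Irf8* in those clusters by 5 *Irf8* UMIs.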

How the results depend on the processing

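The count of genes past an adjusted p of 0.05, 0 by edgeR, was 1047 by DESeq2, 146 in ILC2-marker clusters with the week as a replicate block, and 0 to 1646 when 1 library was left out: 1646 without the wk2 and 513 without the wk3 ta-non-activated library, 0 without either ta-activated library. The cause was not tested. The block alone left it at 0. Over all kept cells, libraries of the same week did not deviate together (r = -0.06 over 12643 genes), and the weeks were not taken as pairs. With 2 libraries a group and a wk3 ta-non-activated library of mixed cell content, this r cannot settle whether the weeks pair the libraries. *Irf1*, *Irf2*, *Irf7* and *Irf9* kept a positive log2 fold change in all 13 alternatives, with ranges of 0.62 to 1.53, 0.78 to 1.31, 3.71 to 5.36 and 1.37 to 1.87. With the ILC2-marker clusters and the block, *Irf7* reached an adjusted p of 0.016 by edgeR. The sign turned elsewhere. *Irf3* was -0.10 in clusters named ILC2-like, -0.058 in ILC2-marker clusters and -0.075 with the block added. *Irf4* was 1.39 with the block, 0.54 with the block in ILC2-marker clusters, and -1.30 to 4.92 with 1 library left out. *Irf5* was -0.57 in clusters named ILC2-like, -0.32 in ILC2-marker clusters, -0.38 with the block added, and -0.59 to 2.17 with 1 library left out. *Irf8* was -0.18 with the block and -2.02 to 1.63 with 1 library left out. In clusters named ILC2-like of the wk3 ta-activated library, the difference in the *Irf7* share, 3 or more minus 1 to 2 interferon-induced genes, was -6.25 points. With clusters named ILC2-like alone, 28 levels of members in single libraries left the Poisson interval of all kept cells, and 12 stayed within it. Depth limits *Irf4*, *Irf5* and *Irf8* most in the wk3 ta-non-activated library, where 3 UMIs in ILC2-marker clusters amount to 1.46 CPM.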
